A study of Homo sapiens with 2 samples.

Results

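The clustered histone genes encode the bulk of the histones that are made while DNA is copied. They were chosen by symbol as the protein-coding genes H1-1 to H1-6 and those named H2AC, H2BC, H3C or H4C with a number, and 65 of 19821 protein-coding genes in the GENCODE release 44 annotation of hg19 met this rule. They comprise 6 genes of the linker histone H1, 16 of H2A, 17 of H2B, 13 of H3 and 13 of H4. NRF-1 occupancy had been profiled in U251, an established human glioblastoma cell line, by ChIPmentation, a chromatin immunoprecipitation in which a transposase adds the sequencing adapters. Both groups were precipitated with the same NRF-1 antibody and differ only in the siRNA, a control (siControl) or one against AATF (siAATF), a transcriptional cofactor that the study follows for its link to NRF-1. The series' own design text names another glioblastoma line, U138, while the sample labels name U251, which is followed here. The experiment was described as a duplicate, but 1 peak list per condition was analysed, so the comparisons below have no replicates and no test.

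The factor NRF-1 acts as a dimer on a palindromic, CpG-rich DNA site near the start of many housekeeping genes, among them genes of mitochondrial respiration. The clustered histone genes are induced in S phase by a program of their own, with the co-activator NPAT as its hub, and their messages end in a conserved stem-loop in place of a poly(A) tail. H2A and H2B pair into dimers, H3 and H4 into tetramers, and together they form the nucleosome core that H1 closes. Many H2A and H2B genes lie head to head and share the promoter between their starts.

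The genes carried the marks of this family. The canonical transcript of all 65 had no intron, against 5.78% of protein-coding genes, and a stem-loop sequence was found within 100 bases after the stop codon in 64 of 65, against 0.348%. The exception was H2BC12L, an H2B gene on chromosome 21, away from the clusters.

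A sequence that several results below describe lies inside the H2B coding sequence. The word GCGCAAGCGC differs from the palindromic NRF-1 core GCGCATGCGC by T6A, with positions counted from 1 at the 5′ end and the core given first. It was present in 13 of the 17 H2B genes, each time with its first base at coding base 87. Here 36 bases around this place are given for both H2B genes with the strongest peaks, for H2BC12L, and for the 4 genes without the word. The sequences are on hg19 and read in the direction of the gene, and the capitals mark the 10 bases at the place of the word.
H2BC13 (chr6:27775575-27775610, minus strand): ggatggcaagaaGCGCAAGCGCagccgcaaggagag
H2BC10 (chr6:26273278-26273313, plus strand): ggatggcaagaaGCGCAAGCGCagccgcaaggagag
H2BC12L (chr21:44985194-44985229, plus strand): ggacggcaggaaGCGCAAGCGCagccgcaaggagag
H2BC3 (chr6:26043776-26043811, minus strand): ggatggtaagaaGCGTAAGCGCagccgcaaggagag
H2BC9 (chr6:26251953-26251988, plus strand): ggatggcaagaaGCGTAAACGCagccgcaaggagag
H2BC14 (chr6:27782896-27782931, plus strand): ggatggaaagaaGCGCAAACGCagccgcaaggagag
H2BC1 (chr6:25727214-25727249, plus strand): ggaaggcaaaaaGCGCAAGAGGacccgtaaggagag
Against the word, H2BC3 has C4T, H2BC14 has G7A, H2BC9 has C4T and G7A, and the testis H2B gene H2BC1 has C8A and C10G, there starting at coding base 90. The codons that hold the 10 capital bases encode the same amino acids in all 17 H2B genes, while the bases around them differ in a few genes.

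The 2 lists held 18014 peaks (siControl) and 18454 peaks (siAATF), with a median fold enrichment over background of 5.82 and 5.59. The −log10 q of a peak, its significance after correction over the genome, had a median of 9.89 and 9.24 and reached 116.4 and 103.8. Fold enrichment is relative to the background of its own library, so each peak was also given a percentile rank by fold in its own list, from 0 (weakest) to 100 (strongest). The read depth of the libraries was not given in the sources used here, and 1 list per condition limits every comparison between them.

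A histone gene had a promoter peak about as often as any other gene, and the classes differed. Ranked by fold or by −log10 q, the median of these peaks was lower than that of all promoter peaks. Counted by gene, each such difference in rank stayed within the counting interval of the histone median, which treats genes that share a peak as independent. A promoter peak, defined as one that overlaps the window 1 kb either side of a coding transcript start, was found at 41 of 65 histone genes in siControl (63.1%, exact binomial 95% interval 50.2 to 74.7), beside 61.0% of all protein-coding genes. In siAATF the count was 40 of 65 (61.5%, 48.6 to 73.3) beside 60.6%. With a −log10 q of at least 5 the histone genes fell to 26 (40.0%, 28.0 to 52.9) and 24 (36.9%, 25.3 to 49.8), while all protein-coding genes stood at 51.4% in siControl and 51.4% in siAATF. The intervals of shares and medians cover counting error only. The median −log10 q of the histone promoter peaks was 10.7 in siControl and 7.62 in siAATF, beside 18.1 and 17.6 for all genes with such a peak, and their median rank by fold was 47.6 and 43.3, beside 63.2 and 64.4. Ranked by −log10 q the medians were 52.1 and 44.8, beside 65.2 and 66.2. The 95% intervals of these histone medians of rank, from order statistics, each held the median over all genes. By fold they ran from 26.5 to 74.9 (siControl) and from 30.5 to 65.3 (siAATF). By −log10 q they ran from 26.7 to 68.4 and from 29.7 to 67.7. Histone genes share peaks: the 41 and 40 genes had 31 and 30 distinct peaks, and 20 genes in each list took the same peak as a neighbour, so genes are not independent observations. With each distinct peak counted a single time, the histone median rank was lower. By fold it was 33.1 in siControl and 37.7 in siAATF, and by −log10 q 33.1 and 37.6. The medians over all genes given above count genes.

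The classes stood apart from each other. H2B genes had a promoter peak in 14 of 17 cases in both lists, and H2A genes in 12 of 16 (siControl) and 11 of 16 (siAATF). H3 genes had one in 6 of 13 and H4 genes in 5 of 13, in each list. For H1 the count was 4 of 6 in each list. At a −log10 q of at least 5, 13 H2B, 8 H2A, 2 H1, 2 H3 and 1 H4 gene remained in siControl, and 12, 8, 1, 2 and 1 in siAATF. The exact intervals of the classes are wide, from 50.1% to 93.2% for H2B and from 0.195% to 36.0% for H4 at this threshold in siControl. The median −log10 q in siControl was 24.4 for H2B and 19.9 for H2A, but 4.09 for H3, 3.77 for H1 and 2.43 for H4. Each of the 8 H2A genes that remained took the same peak as its head-to-head H2B partner, so these peaks are counted in both classes. H2A genes with a siControl peak but no such partner among the members had low values: H2AC4 1.44, H2AC7 2.02, H2AC8 3.11 and H2AC19 2.85. H2BC7 and H2BC8 were not analysed here, so a partner among these genes was not counted. The plot of every gene by class shows the strong peaks gathered in H2B and the H2A genes paired with it, with 1 H3 gene apart from its class.

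**Figure D1:**
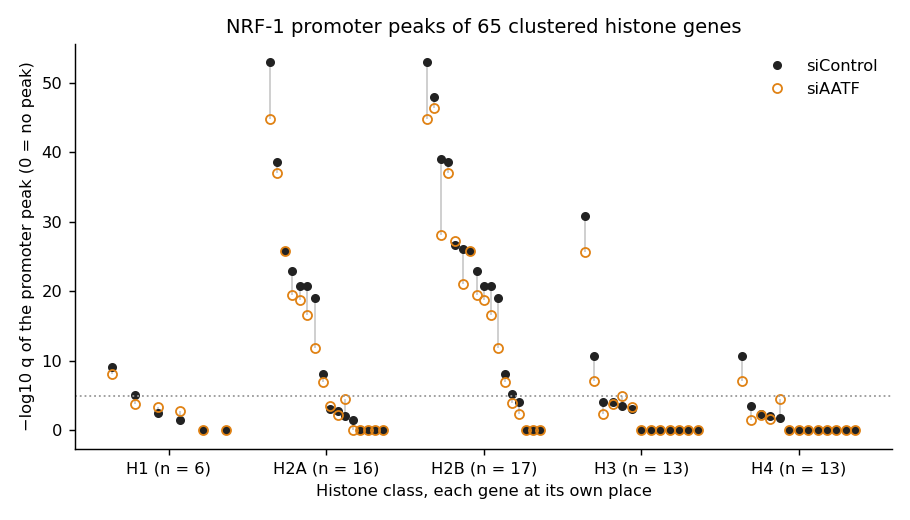
Promoter peak of each of the 65 histone genes, as −log10 q on the vertical axis, by class on the horizontal axis, with siControl as filled and siAATF as open points joined for each gene, and a dotted line at 5. Genes without a peak sit at 0, and peaks above 20 are seen for H2A and H2B genes and for 1 H3 gene, at 30.9 in siControl. The H2A genes above 20 share the peak of their H2B partner.

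The strongest peak over a histone gene was shared by H2BC13 and its head-to-head partner H2AC13, which encode the dimer partners H2B and H2A. It had a −log10 q of 52.9 (siControl) and 44.8 (siAATF), its fold enrichment was 10.1 and 9.19, and its rank 97.8 and 96.6. H2BC10, which has no head-to-head partner among the members, followed with a −log10 q of 48.0 and 46.3, a fold of 9.82 and 9.78 and a rank of 97.02 and 98.9, close to the top of both lists. H2BC5 had a −log10 q of 39.0 (siControl) and 28.2 (siAATF), and its rank was lower in siAATF, at 78.8 against 94.0. The peak shared by H2BC11 and H2AC11 moved the other way in rank, from 78.6 to 88.5, with a −log10 q of 38.6 and 36.96. These directions therefore differed between H2B genes, and the libraries give no spread to set them against. The next H2A and H2B peaks were those of H2BC18 (26.7 and 27.3), of H2BC6 (26.1 and 21.1) and of H2BC4 with H2AC6 (25.9 and 25.8), each of which encodes a canonical H2B or H2A protein.

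Among the other classes a single gene reached such values. H3C6, which encodes H3, had a −log10 q of 30.9 in siControl and 25.6 in siAATF with a fold of 9.87 and 8.54. This peak lay at a second annotated start of the gene, with its midpoint at −1140 bp from the canonical one in siControl, and did not touch the coding sequence in either list. The next H3 gene, H3C1, shared its siControl peak with the H4 gene H4C1 (10.7). In siAATF a different peak, which did not overlap that one, was the strongest in the window of both genes (7.09). Of the linker histones H1-2 was highest, with 9.09 and 8.14.

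The peaks over H2B genes had their midpoints mostly after the start, within the gene. In siControl a peak also covered the start itself at 70.6% of H2B genes. The peak midpoint of H2B genes had a median of 167 bp after the canonical start in siControl, and the peaks covered the whole coding sequence of 12 of 17 H2B genes in each list. H2A genes had their peak at a median of −400 bp, that is before the start, and the coding sequence was wholly covered in 1 of 16. At 200 bp after the start, 76.5% of H2B genes and 12.5% of H2A genes had a siControl peak, beside 47.3% of all protein-coding genes. At 400 bp before the start it was 56.2% of H2A genes and 11.8% of H2B genes, beside 29.0%. The profile around the start shows the cover of H2A and H2B genes displaced to opposite sides, while the cover of all genes is centred on the start. H3 and H4 genes had a median midpoint of 190 and 226 bp after the start, with peaks of low −log10 q.

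**Figure D2:**
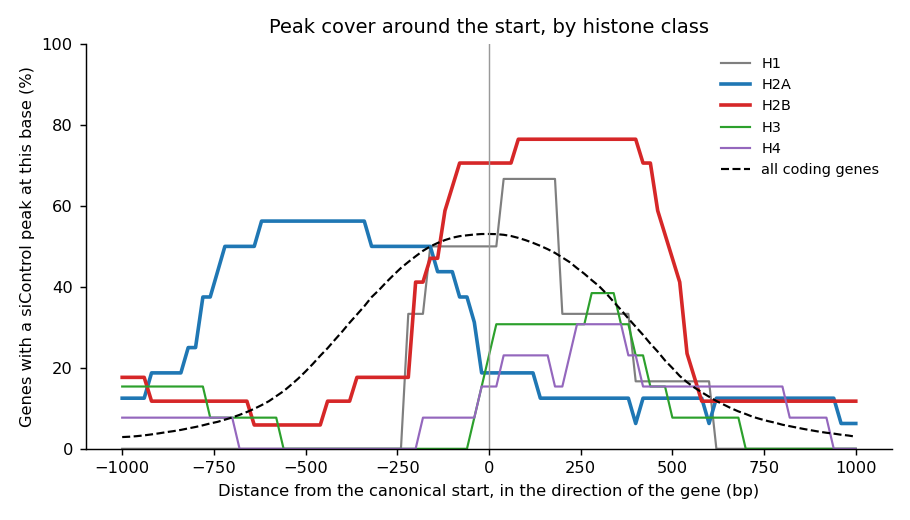
Share of the genes of each class (vertical axis, in percent, all genes of the class counted) with a siControl peak at each distance from the canonical start (horizontal axis, in bp along the gene), with all protein-coding genes as a dashed line. H2B cover lies mainly after the start, reaching 76.5%, and H2A cover before it, reaching 56.2%.

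The head-to-head pairs showed both patterns at the same peaks. Among the members, 10 close pairs of an H2A and an H2B gene were found, each with a shared promoter of 193 bases or more, and in 8 of them a siControl peak was taken for both genes. In each of these 8 the H2B gene held the word, and the 2 pairs without a peak in either list, H2AC1 with H2BC1 and H2AC14 with H2BC14, had an H2B gene without it. A pair that differs in this way lies in 1 cluster on chromosome 6: the promoters of H2BC13 and H2BC14, shown on hg19 from the base after the H2A start to the base before the H2B start, were 86.2% identical and their coding sequences 88.9%. Capitals mark TATAAA (the TATA box), CCAAT (a site of the factor NF-Y) and ATTTGCAT (the octamer) on either strand. The pair was chosen after its values were seen.
H2BC13 and H2AC13 (chr6:27775708-27775950, minus strand): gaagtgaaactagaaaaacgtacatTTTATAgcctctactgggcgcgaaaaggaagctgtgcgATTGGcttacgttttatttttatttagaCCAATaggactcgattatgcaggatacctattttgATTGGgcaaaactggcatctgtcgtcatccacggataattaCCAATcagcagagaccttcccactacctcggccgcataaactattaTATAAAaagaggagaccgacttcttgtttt
H2BC14 and H2AC14 (chr6:27782556-27782799, plus strand): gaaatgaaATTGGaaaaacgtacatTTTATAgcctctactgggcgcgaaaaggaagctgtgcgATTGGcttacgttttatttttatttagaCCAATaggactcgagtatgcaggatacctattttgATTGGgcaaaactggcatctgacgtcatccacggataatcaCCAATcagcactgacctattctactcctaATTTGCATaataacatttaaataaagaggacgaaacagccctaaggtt
The promoter above the strongest histone peak holds 4 CCAAT words, 2 TATAAA words and no GCGCA on either strand, and the one above a gene without a peak holds 5, 1 and also no GCGCA. The H2BC13 promoter lacks ATTTGCAT, the octamer bound by the POU factor OCT1, which the H2BC14 promoter holds.

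Among the 17 H2B genes analysed, a peak covered the place of the word in 12 of the 13 with the word and in 1 of the 4 without it, in both lists. The peaks over the word had a −log10 q from 8.12 to 52.9 (median 26.0) in siControl and from 6.91 to 46.3 (median 23.4) in siAATF. The peak over the place in H2BC3, which lacks the word by 1 base, had 5.19 and 3.92, below each of those 12 in the same list. No peak lay there in H2BC1, H2BC9 or H2BC14, nor in H2BC12L, which has the word. In siControl the peak midpoint lay a median of 33 bp from the word, from 9 bp in H2BC6 to 469 bp in H2BC21, whose peak is 1373 bp wide. At H2BC15 the peak over the word had a −log10 q of 22.99 in siControl and 14.5 in siAATF, where a neighbouring peak of 19.5 was the strongest in the window. The bars of the 17 H2B genes show this split, and both the word and the split were looked for after the peaks had been seen, so they are descriptions.

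**Figure D3:**
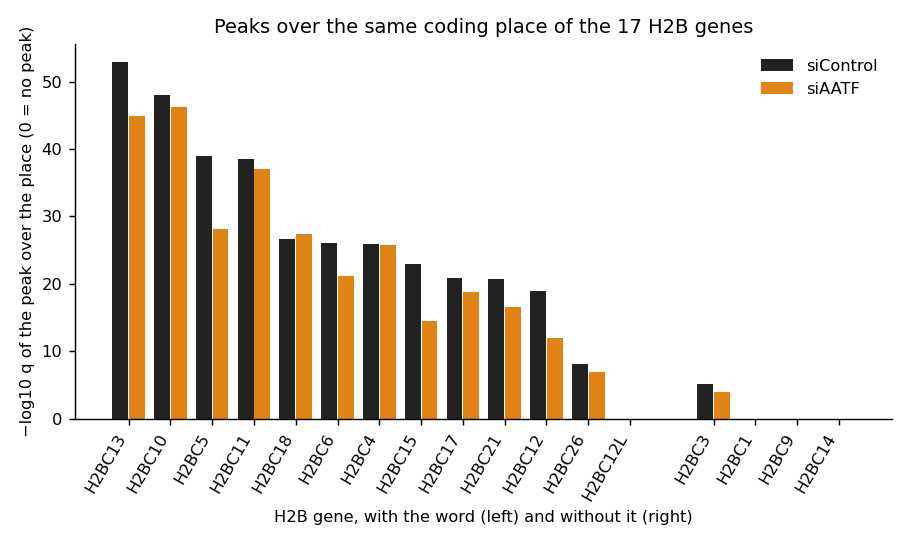
Bars give the −log10 q of the peak over the same coding place of each of the 17 H2B genes (vertical axis, 0 where no peak lies there) in siControl and siAATF, with the 13 genes that hold the word on the left and the 4 without it on the right. The bars on the left stand between 6.91 and 52.9 except at H2BC12L, and on the right H2BC3 alone has bars, of 5.19 and 3.92.

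The word is not particular to histone genes in being covered. It lay within 1 kb of the canonical start of 23 histone genes, 13 H2B and 10 H2A, and of 282 protein-coding genes in all (1.42%). A peak covered it at 20 of these 23 histone genes in each list, beside 88.7% of all genes with the word in siControl and 88.3% in siAATF, shares close to that of the histone genes. The exceptions were H2BC12L, H2AC8 and H2AC19. In H2AC8 and H2AC19 the word lay before the start, at −373 and −383 bp, and neither has an H2B partner among the members. Whether these copies of the word lie in H2B genes not analysed here was not tested, and the split of the H2B genes above leaves them out. The median rank by fold of the 12 distinct siControl peaks over the word at histone genes was 82.0, and that of the 189 peaks at other genes with the word was 80.6. In −log10 q they stood lower, at 26.0 against 66.6.

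Counted over promoter peaks, the NRF-1 core with up to 1 mismatch was found in the peak of 21 of 41 histone genes in siControl (51.2%, 35.1 to 67.1), beside 24.2% of all genes with a peak. In siAATF it was found at 19 of 40 (47.5%, 31.5 to 63.9), beside 24.4%. There a neighbouring peak without the word stood for H2AC15 and H2BC15, although a weaker peak still covered the word. Taking any peak, the word was covered at 20 histone genes in each list. By class the siControl count was 12 of 14 H2B genes, 8 of 12 H2A genes and 1 of 4 H1 genes, and none of the 6 H3 and 5 H4 genes with a peak, whose upper limits are 45.9% and 52.2%. The word made up 20 of the 21, and the other was H1-2. No histone promoter peak held the exact core, beside 3.95% and 4.01% of all genes with a peak. Counting each distinct peak a single time, an alternative added after the data had been seen, gave 41.9% and 40.0%.

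GCGCA, the opening bases of the palindromic NRF-1 core and not the whole site, was rarer in core histone promoters than in promoters in general. It was more frequent in those of H1, which has 6 genes alone, and no test was made. GCGCA on either strand lay within 200 bases before the canonical start of 13 of the 65 histone genes, beside 39.6% of all protein-coding genes. By class it was found in 4 of 6 H1 genes (66.7%), 4 of 13 H4 genes (30.8%), 3 of 16 H2A genes (18.8%), 1 of 13 H3 genes (7.69%) and 1 of 17 H2B genes (5.88%). In contrast, the words of the histone promoter were frequent. CCAAT was found in 84.6% of histone genes against 30.3%, and TATAAA within 50 bases before the start in 58.5% against 4.75%. ATTTGCAT was found in 13 of 17 H2B genes and 7 of 16 H2A genes and in no other class, against 1.23% of all genes. AAACACA, the H1 box, was found in 6 of 6 H1 genes, against 2.80%. A match of letters is no evidence of binding, and all words were searched on both strands.

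Of the 65 genes, 40 had a promoter peak in both lists (61.5%), 24 in neither (36.9%) and 1 in siControl alone (1.54%), shares close to the 59.4%, 37.8% and 1.62% of all protein-coding genes. None had one in siAATF alone, beside 1.17% of all. The gene with a peak in siControl alone was H2AC4, an H2A gene whose siControl peak was near the floor of the list, with a −log10 q of 1.44 and a rank of 5.57. The 24 without a peak comprised 8 H4 genes (H4C4, H4C7, H4C9, H4C11, H4C12, H4C13, H4C14 and H4C15), 7 H3 genes (H3C3, H3C4, H3C8, H3C10, H3C12, H3C14 and H3C15), 4 H2A genes (H2AC1, H2AC14, H2AC16 and H2AC21), 3 H2B genes (H2BC1, H2BC14 and H2BC12L) and the linker histone genes H1-1 and H1-6. H2AC1, H2BC1 and H1-6 are known for expression in testis. Over 50% of the 100-base words of the promoter window occurred elsewhere in the genome for H4C14, H3C14, H2AC19, H3C15 and H4C15, of which 1 had a peak, and the part of copied sequence in the counts was not tested. Without these 5 genes a promoter peak was found at 40 of 60 in siControl and 39 of 60 in siAATF, and 20 of the 24 genes without a peak were not copied to that extent in this window. Among those 20 the coding sequence was copied over 50% in H4C11 (100%), H4C12 (100%) and H2AC14 (81.8%). Genes with a peak also had such coding sequences: H2AC19 (100%), H2AC13 (80.1%) and H3C13 (61.8%). H2BC7, H2BC8 and H4C6 were not analysed here.

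The siAATF list ranked the histone genes much as the siControl list did. For 36 genes the peaks taken in both lists overlapped, and their rank by fold changed by a median of −1.41 points (siAATF minus siControl), with 22 genes lower and a range from −24.0 to 31.1. Over 11612 such protein-coding genes the median was 0.20. With each pair of peaks counted a single time the median over 28 pairs was −1.41, with 17 lower. A change of over 20 points was seen for 3 of the 36 genes, beside 6.42% of all. H4C5 went from rank 28.7 to 4.71, H4C8 from 10.5 to 41.6 and H2AC7 from 8.28 to 30.9. All 3 peaks were weak, with a −log10 q of at most 4.51 in either list, and H2AC7 shares its peak with another coding gene. Among the H2B genes with the word, rank changes ran from −15.2 at H2BC5 to 9.91 at H2BC11. The scatter of ranks shows the histone genes along the diagonal, with H2B genes mostly at its upper end and H1, H3 and H4 genes mostly at its lower end. H2BC26, which has the word, lay low, at 22.9 in siControl and 16.0 in siAATF.

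**Figure D4:**
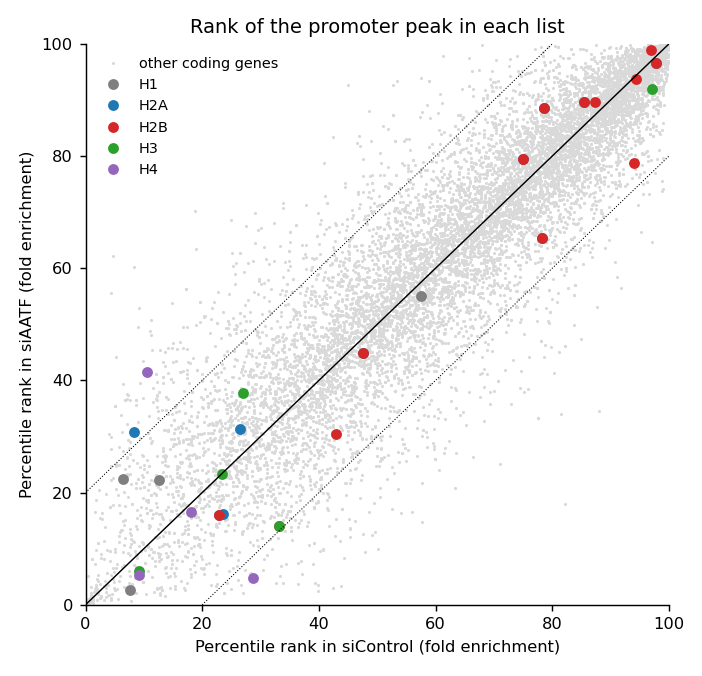
Percentile rank by fold enrichment of the promoter peak in siControl (horizontal axis) and siAATF (vertical axis), for 36 histone genes coloured by class over all other protein-coding genes in grey, with the diagonal and dotted lines at 20 points from it. Points of an H2A gene lie under that of the H2B gene with the same peak, and 3 histone genes fall outside the dotted lines.

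By position the genes fell into 7 groups with gaps of at most 500 kb inside a group. The first group on chromosome 6 held 30 genes, of which 21 (siControl) and 20 (siAATF) had a promoter peak, and its strongest was H2BC10. The second on chromosome 6 held 5 genes, 4 with a peak in each list, led by H2BC11 and H2AC11, and its median −log10 q in siControl, 28.8, was the highest of the groups. The third held 16 genes, 8 with a peak in each list, led by H2BC13 and H2AC13. On chromosome 1 the first group had a peak at 5 of 10 genes in each list, led by H2BC18 (26.7 in siControl), and the second group is the pair H2AC25 and H2BC26, which shared a peak of 8.12 and 6.91. H4C16 on chromosome 12 had a weak peak (2.04 and 1.57), and H2BC12L on chromosome 21 had none. Nearly all peaks inside the groups lay at histone promoters, for example 20 of 21 siControl peaks within the first group of chromosome 6. Of 9 other coding genes inside the groups, 2 had a promoter peak in each list, beside 61.0% and 60.6% of all. These were HIST2H2AA3, an H2A gene under an older symbol, and ENSG00000282988, which shares its start and its peak with H2AC7. SLC17A1, SLC17A2, SLC17A3, SLC17A4, TRIM38, HFE and HIST1H4B had none.

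Genes that serve the histones stood higher than the histone genes. All 17 genes for histone transcription and mRNA processing had a promoter peak in both lists, beside 61.0% (siControl) and 60.6% (siAATF) of all protein-coding genes, led by SYMPK, a scaffold of the 3′ cleavage complex (94.1 in siControl and 84.3 in siAATF), POU2F1, which encodes the octamer-binding OCT1 (93.2 and 82.9), and SRRT, which links transcripts to the cap-binding complex (83.1 and 70.6). NPAT had 46.9 and 46.3, and SLBP, which binds the stem-loop, 42.6 and 39.6, each value a −log10 q. Of 21 histone chaperones and deposition factors 18 had a peak in each list, led by MCM2 (73.9 and 68.7), the HIRA partner CABIN1 (72.0 and 69.7) and RBBP4 (67.0 and 56.5). CHAF1A had one in siAATF alone (5.05) and IPO4 in siControl alone (3.51), while DAXX and ATRX had none.

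Among histone variants encoded outside the clusters, peaks were found at somatic and not at germline genes. The share over all protein-coding genes was 61.0% in siControl and 60.6% in siAATF. Of 10 somatic variants 8 had a promoter peak in each list, led by H3-3B (88.7 and 81.6) and H3-3A (19.3 and 23.1), which encode H3.3, and by H2AZ2 (14.7 and 14.8), while MACROH2A2 and H2AJ had none. Of 12 germline variants, among them H1-7, H1-8, H2AB1, H2BW1 and H3-4, none had one in either list, which at this number leaves an exact upper limit of 26.5%. At a −log10 q of at least 5 the share in siControl was 82.4% for the mRNA factors, 76.2% for the chaperones and 76.5% for the H2B genes. Of the 10 somatic variants 5 passed. In the plot of these shares, the siControl and siAATF intervals of each group of genes overlap. No test of a list was made.

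**Figure D5:**
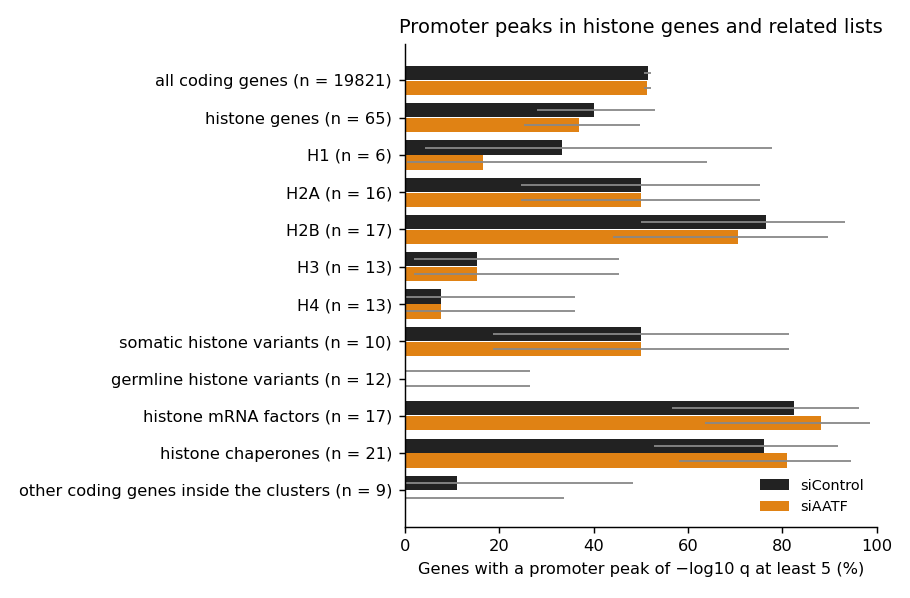
Share of genes with a promoter peak of −log10 q at least 5 (horizontal axis, in percent) for all protein-coding genes, the histone genes and their classes, and related lists, in siControl and siAATF, with exact binomial 95% intervals for counting error as grey lines. H2B genes, mRNA factors and chaperones stand above the 51.4% of all genes, and H3, H4 and germline variant genes below it.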

How the data were processed

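NRF-1 ChIP-seq peaks of U251 cells, 1 list per siRNA condition, were analysed on hg19. Per the study's methods, the authors aligned reads with Bowtie2 and called peaks with MACS2 in an ATAC-seq pipeline with default settings. No input library was named, and whether the duplicates were pooled was not stated. An ATAC-seq setting can shift reads from the transposase cut and move peak edges slightly. The deposited broadPeak values were positions, the fold enrichment over local background (a ratio), each peak's −log10 p and −log10 q, and a display score that the authors' caller derived from the −log10 q, not used here. Depth was unknown, so counting intervals cover neither library depth nor the spread between cultures.

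The peak with the highest −log10 q overlapping by at least 1 base the window 1 kb either side of any coding transcript start (GENCODE release 44 on hg19) stood for a gene. Percentile ranks were taken within each list, and exact binomial 95% intervals were computed for shares. Sequence was read from the same build. Copied sequence was counted as words of 100 bases. Scripts were tested on simulated data. Python 3.11.15, numpy 2.4.6, scipy 1.17.1, pysam 0.24.0, Biopython 1.88 and matplotlib 3.10.9 were used.

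The genes, lists and tests were chosen with earlier results of these data known. Named were the 10 histone genes with the highest −log10 q in siControl, those with no peak in a list, those whose rank changed by over 20 points, the strongest of each class and group, and the 3 strongest and up to 5 without a peak of each related list. Genes of H2B shown for the word were named beyond that rule, after their values were seen, as were NPAT, SLBP and examples of germline variants. An item of the list of somatic variants is not reported here and was left out of its counts.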

Additional observations from a re-analysis of the deposited data

How the results depend on the processing

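With 1 list per condition no spread between replicates was computed, and depth, which sets how many weak peaks pass, was unknown. No paired analysis was possible because each condition has 1 list. Of 38 alternatives, 32 stayed inside the counting interval of the value reported and 6 left it. Keeping peaks with a −log10 q of at least 5 moved the share of histone genes with a promoter peak to 40.0% in siControl and 36.9% in siAATF, and the median rank by fold in siAATF to 68.8. Requiring the exact NRF-1 core moved its share to 0% in siControl and 0% in siAATF. Requiring it within 100 bp of the peak midpoint moved it to 34.1% in siControl. These follow from the stricter definitions. Counting each peak a single time for the core was added after the data had been seen and stayed inside the interval.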

Other observations

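A pair of histone genes lies inside the groups under older symbols and so outside the rule on symbols. HIST2H2AA3, an H2A gene on chromosome 1, had a promoter peak with a −log10 q of 5.72 in siControl and 3.54 in siAATF. HIST1H4B, an H4 gene on chromosome 6, had none in either list, as was the case for 8 of the 13 H4 genes analysed.

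The count of CpG dinucleotides in the coding sequence had a median of 29 over the 13 H2B genes with the word, from 25 to 35, and of 21.5 over the 4 without it, from 14 to 27, and it was 39 over the H3 genes and 28 over the H4 genes. In the 200 bases before the start the median count was 6 for H2B genes and 10 for H4 genes.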
